A study of Glycine max and Glycine soja with 189 samples.

Results

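*GmCOL13a* (transcript Glyma16g05540.1) and *GmCOL13b* (Glyma19g27240.1) are a homeologous pair of CONSTANS-like genes of soybean, 2 of 26 *GmCOL*s in a table of 73320 transcripts. They were identified by the transcript names given with the gene family tree, and each locus has 1 transcript in the table. The pair was selected on its mRNA abundance in these libraries, for low values under short days (SD) against long days (LD) and for a divergence of the homeologs under SD. The SD and LD levels are therefore given as a description with no test. The data go against the label of repression in short days at the night time point, where the mean of *GmCOL13a* was 8.72 ± 1.31 RPKM with SD against 3.18 ± 1.31 RPKM with LD (mean ± standard deviation, as in all levels below, n = 21 each).

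Transcripts were sequenced in 3 libraries for each of 63 groups formed by 7 genotypes, 3 photoperiods and 3 time points. The genotypes were the cultivars Clark (e1E2E3E4e5E7) and Williams 82, the near isogenic lines of Clark L65-3366 (E1E2E3E4e5E7), L66-432 (e1e2E3E4e5E7), L74-441 (e1E2e3E4e5E7) and L92-1195 (e1E2e3E4E5E7), and the wild soybean *Glycine soja*. SD gave 10 h of light from 6:45 to 16:45, LD gave 16 h from 6:45 to 22:45, and LD-SD was 21 days of LD followed by 5 days of SD. Samples were taken 26 days after planting at T1 (6:30, in the dark before lights on), T3 (14:30, in the light) and T5 (22:30, in the dark under SD and LD-SD but still in the light under LD). The sample records name the first trifoliate leaf, while the methods name whole shoots above the cotyledon, so the tissue behind the values is uncertain. It could not be checked against marker genes, because the locus names of the table had no match in the reference gene table. In bulk tissue, fewer cells of a type and less RNA per cell cannot be told apart.

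CONSTANS is a regulator of transcription that times flowering by day length. In Arabidopsis, a long-day plant, it accumulates in the light of a long afternoon and switches on the florigen gene *FT*, so the hour at which a CONSTANS-like mRNA peaks is a central property of the family. The GmCOL13 proteins belong to Clade III, whose proteins carry a pair of B-boxes, and Arabidopsis COL9, also from this part of the family, delays flowering. Homeologs are the copies of a gene left by a whole-genome duplication, and soybean flowers earlier in short days.

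The depth of a library was 4.92 M to 18.2 M mapped reads with a median of 9.54 M, and RPKM scales the reads of a transcript by its length and by this depth. For the median library, 3 reads corresponded to 0.186 RPKM of *GmCOL13a* and 0.194 RPKM of *GmCOL13b*, so values near these levels rest on very few reads. Reads of homeologs can match both copies, and no rule for such reads is stated, so the division of reads within the pair is uncertain. In 4 libraries the highest correlation with another library of the same group was under 0.95, and these are said to stand apart. They were L66-432 replicate B at T5 under SD, *G. soja* replicate C at T1 and replicate B at T3 in LD-SD, and a library of L92-1195 at T5 in LD-SD whose column carries no replicate letter of the labels. Marker transcripts were found for *G. soja* (355), Williams 82 (42) and L74-441 (3), and none for the other genotypes. Exchanges among genotypes without markers could not be seen. Markers went against the label in 6 libraries, 2 of LD at T1 and 4 of LD-SD at T3 or T5. The 4 of LD-SD rest on the 3 markers of L74-441 alone. With the unlettered library these 7 have an unclear label. The closest replicates were L74-441 B and C at T5 in LD-SD (chi-square divided by its degrees of freedom of 1.07 for 11843 transcripts, with a median of 2.23 for all replicate pairs). Both were kept as separate samples and both are among the 7.

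Under LD, *GmCOL13a* was a gene of the afternoon. Its mRNA abundance at T3 had a lowest value of 17.5, a median of 23.5 and a highest value of 30.9 RPKM over 21 libraries (mean 24.5 ± 3.90 RPKM). Under SD the same clock time gave 1.19, 2.01 and 3.23 RPKM (mean 2.15 ± 0.611 RPKM). The 2 photoperiods did not overlap in any genotype, and the mean was 11.4 times lower under SD, from 8.21 times in L92-1195 to 14.7 times in Williams 82. With the 24.5 RPKM under LD at T3, *GmCOL13a* stood in place 5 of the 26 *GmCOL*s and in place 1 of the 12 of Clade III. Under SD at T3 it stood in place 17 of 26.

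At T1 the gene was faint in both photoperiods. LD libraries held 0.518 to 1.85 RPKM of *GmCOL13a* (median 1.09, mean 1.04 ± 0.302 RPKM, n = 21). SD libraries held 0 to 1.39 RPKM (median 0.384, mean 0.479 ± 0.347 RPKM, n = 21), with 4 of them at 3 reads or fewer and 1 at 0 reads. The mean was 2.16 times lower under SD, and the 3 libraries of each photoperiod did not overlap in 5 of 7 genotypes. At T5 the order was the opposite. SD libraries held 6.69 to 10.9 RPKM (median 8.66), and LD libraries 1.87 to 7.72 RPKM (median 2.69). The SD mean was 2.74 times the LD mean, and the groups did not overlap in any of the 7 genotypes. The highest LD value belonged to *G. soja* replicate C, whose whole expression profile was nearer to the SD libraries of T5 than to the other LD libraries of T5.

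*GmCOL13b* differed less than *GmCOL13a* between the photoperiods at T3 and T5, but not at T1. At T1 its LD libraries held 1.62 to 5.55 RPKM (median 2.73, mean 2.97 ± 1.07 RPKM) and its SD libraries 0.446 to 1.83 RPKM (median 1.005, mean 1.08 ± 0.344 RPKM), with 21 libraries each. The mean was 2.74 times lower under SD, and 19 of the 21 SD libraries lay below the lowest LD library. At T3 the LD libraries held 5.48 to 11.8 RPKM (median 6.59, mean 7.32 ± 1.78 RPKM) and the SD libraries 3.27 to 8.57 RPKM (median 4.96, mean 5.19 ± 1.40 RPKM). Here the mean was 1.41 times lower under SD, from 2.39 times lower in *G. soja* to a ratio of SD to LD of 1.03 in Williams 82, and the groups were without overlap in 3 of 7 genotypes. At T5 the SD mean of 3.07 ± 0.863 RPKM stood beside an LD mean of 2.58 ± 0.867 RPKM, and all 21 SD libraries lay within the range of the LD libraries. The low values under SD thus held at T1 and T3 for *GmCOL13b*, and not at T5.

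**Figure D1:**
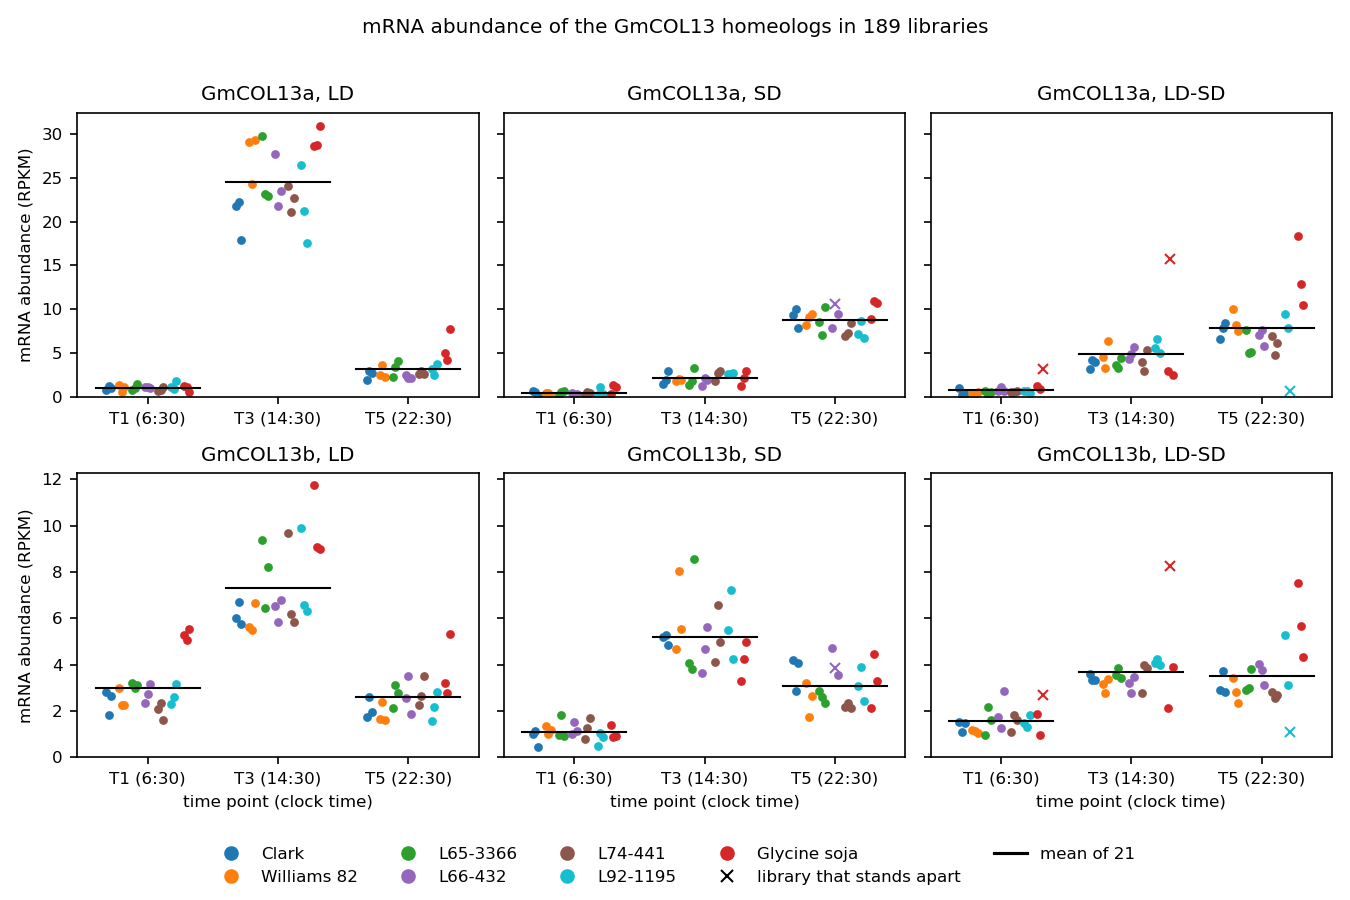
mRNA abundance in RPKM (vertical axis) of *GmCOL13a* (top) and *GmCOL13b* (bottom) in each library at T1, T3 and T5, by photoperiod. Points are libraries coloured by genotype, crosses are the 4 libraries that stand apart, and lines are means of 21. *GmCOL13a* was highest at T3 under LD (17.5 to 30.9 RPKM) and at T5 under SD (6.69 to 10.9 RPKM), while *GmCOL13b* was highest at T3 in both.

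Over the 9 combinations of photoperiod and time point, the order of the *GmCOL13a* means was LD T3, SD T5, LD-SD T5, LD-SD T3, LD T5, SD T3, LD T1, LD-SD T1 and SD T1. Only the steps from LD T3 to SD T5 and from SD T3 to LD T1 were larger than the larger standard deviation of the neighbours (n = 21 each). For *GmCOL13b* the order was LD T3, SD T3, LD-SD T3, LD-SD T5, SD T5, LD T1, LD T5, LD-SD T1 and SD T1. Its steps exceeded the larger standard deviation between LD T3 and SD T3, between SD T3 and LD-SD T3, and between LD T5 and LD-SD T1.

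The time course under SD is part of what chose the pair and is described only. *GmCOL13a* peaked at T5 in all 7 genotypes, with a mean 18.2 times that at T1 and 4.06 times that at T3. *GmCOL13b* peaked at T3 in all 7 genotypes, with a mean 4.80 times that at T1 and 1.69 times that at T5. The LD libraries also had a part in the choice, and their time course is likewise given with no test. Under LD both genes peaked at T3 in all 7 genotypes. The LD mean of *GmCOL13a* at T3 was 23.6 times that at T1 and 7.71 times that at T5, and the T5 mean was 3.07 times that at T1. For *GmCOL13b* the T3 mean was 2.47 times that at T1 and 2.84 times that at T5. Time of day moved most of the transcriptome under LD, where the F-test over time points called 79.2% of all transcripts and the 3 pairs of time points 59.6% on average.

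Tests below came from limma fitted on log2(RPKM + 1) for 61180 transcripts over all libraries, with Benjamini-Hochberg adjustment and a threshold of 0.05. Log2 differences are given as estimate ± standard error. The fit shares a single spread per transcript among all groups. For *GmCOL13a* the spread within groups was larger in LD-SD at T3 and T5 than under SD and LD (values below). Its standard errors may be too small in contrasts with those groups and too large within SD and LD. Libraries of the same replicate letter shared some deviation between genotypes (mean correlation 0.187 over 561 pairs). The tests treat all libraries as independent, so p-values for means over genotypes may be too small.

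In LD-SD, whose libraries did not choose the pair, the means of *GmCOL13a* had the same order of time points as under SD. It had 0.220 to 3.13 RPKM at T1 (median 0.607, mean 0.724 ± 0.611 RPKM), 2.53 to 15.7 RPKM at T3 (median 4.35, mean 4.87 ± 2.73 RPKM) and 0.600 to 18.4 RPKM at T5 (median 7.57, mean 7.82 ± 3.45 RPKM). The peak was at T5 in all 7 genotypes. The highest T1 and T3 values and the lowest T5 value came from libraries that stand apart, and without them the means were 0.604 ± 0.270, 4.33 ± 1.17 and 8.18 ± 3.10 RPKM (n = 20 each). The gene rose by 1.73 ± 0.107 from T1 to T3 (adjusted p = 1.18e-31) and by 0.56 ± 0.107 from T3 to T5 (adjusted p = 2.77e-06).

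*GmCOL13b* in LD-SD had 0.958 to 2.84 RPKM at T1 (median 1.48, mean 1.56 ± 0.522 RPKM), 2.14 to 8.24 RPKM at T3 (median 3.48, mean 3.66 ± 1.17 RPKM) and 1.10 to 7.51 RPKM at T5 (median 3.10, mean 3.51 ± 1.35 RPKM). The time points T3 and T5 overlapped almost wholly, and the peak was at T3 in 5 genotypes and at T5 in L66-432 and *G. soja*. It rose by 0.86 ± 0.0847 from T1 to T3 (adjusted p = 2.24e-17), while the difference from T3 to T5 was -0.07 ± 0.0847 (adjusted p = 0.483). The F-test within LD-SD gave adjusted p = 1.40e-43 for *GmCOL13a* and 3.17e-19 for *GmCOL13b*, beside 78.7% of all transcripts called by the F-test and 59.9% by the pairs of time points.

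The homeologs changed places in the course of the day. Their ratio was taken in each library as log2(RPKM + 1) of *GmCOL13b* minus that of *GmCOL13a*, so that a positive value means more *GmCOL13b*. RPKM is per length, which makes the level of the genes comparable, within the uncertainty of shared reads. Under SD, *GmCOL13b* was the higher one in 18 of 21 libraries at T1 and in 21 of 21 at T3, and *GmCOL13a* in 21 of 21 at T5. The mean ratio was 0.51 ± 0.38 (T1), 0.97 ± 0.28 (T3) and -1.27 ± 0.31 (T5), and *GmCOL13b* held 69.3%, 70.7% and 26.0% of the summed RPKM of the pair. This is the divergence that chose the pair and is not tested.

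Under LD the change of places came earlier in the day. *GmCOL13b* was higher in 21 of 21 libraries at T1 (mean ratio 0.93 ± 0.40) and *GmCOL13a* in 21 of 21 at T3 (-1.63 ± 0.25), and at T5 *GmCOL13a* was higher in 18 of 21 (-0.21 ± 0.28). *GmCOL13b* held 74.1%, 23.0% and 44.8% of the summed RPKM. These ratios come from libraries that had a part in the choice of the pair and are not tested. The mean ratio was lower at T3 than at T1 and higher at T5 than at T3 in 7 of 7 genotypes. At T3 the libraries of LD (ratio -2.18 to -1.22) and SD (0.49 to 1.59) lay on opposite sides of 0 without overlap.

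In LD-SD the mean ratio was 0.60 ± 0.37 (T1), -0.27 ± 0.34 (T3) and -0.90 ± 0.40 (T5), with 21 libraries each. *GmCOL13b* was higher in 20 of 21 libraries at T1, in 4 at T3 and in 1 at T5, which was the unlettered L92-1195 library that stands apart. The ratio fell by 0.87 ± 0.109 from T1 to T3 and by 0.63 ± 0.114 from T3 to T5, both in 7 of 7 genotypes. A two-sided permutation test with 100000 resamples over 21 against 21 libraries gave adjusted p = 2e-05 for each pair of time points within LD-SD, the smallest value it can give. It counts the libraries of the 7 genotypes alike and as independent, so its p-values may be too small as well. At T3 in LD-SD the higher homeolog was thus mostly *GmCOL13a*, as under LD, although the plants had the light hours of SD. The mean share of *GmCOL13b* at this time point was 44.3 ± 7.08% in LD-SD, 70.7 ± 5.27% under SD and 23.0 ± 3.41% under LD.

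**Figure D2:**
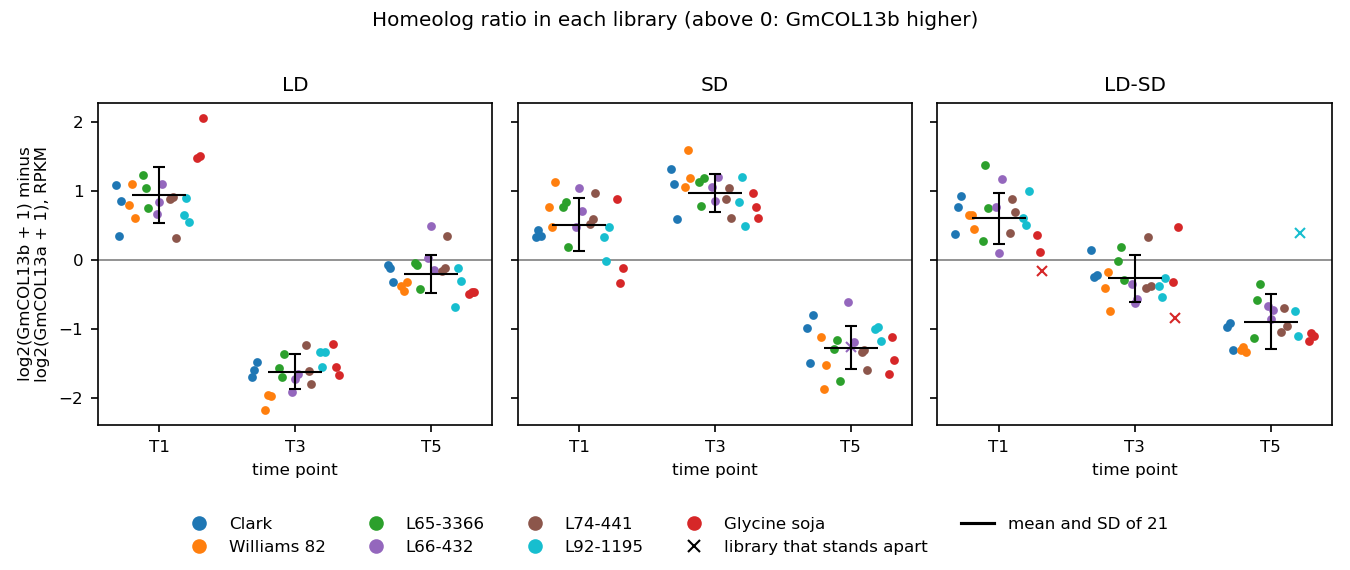
Log2(RPKM + 1) of *GmCOL13b* minus that of *GmCOL13a* (vertical axis) in each library at T1, T3 and T5, by photoperiod. Points are libraries coloured by genotype, crosses stand apart, and black marks are the mean and standard deviation of 21. At T3 the mean ratio was -1.63 under LD, 0.97 under SD and -0.27 in LD-SD.

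The summed RPKM of the pair at T3 was 31.8 ± 5.07 RPKM under LD, 7.34 ± 1.80 RPKM under SD and 8.54 ± 3.79 RPKM in LD-SD. At T5 the sums were 5.76 ± 2.05, 11.8 ± 1.75 and 11.3 ± 4.68 RPKM in the same order.

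The shift from LD to SD was sampled only after 5 days of SD, so it shows the levels at that time and not a rate. The LD libraries of this comparison also chose the pair, so its p-values and counts of genotypes are not independent of that choice and support nothing about it. At T3 *GmCOL13a* was lower in LD-SD than in LD by 2.19 ± 0.107 on the log2 scale (difference -2.19, adjusted p = 2.70e-40), a mean 5.03 times lower. The 21 LD-SD libraries (2.53 to 15.7 RPKM) all lay below the lowest LD library, and the contrast passed in 7 of 7 genotypes, from -2.46 in L65-3366 to -1.74 in L92-1195. *GmCOL13b* was lower at T3 by 0.84 ± 0.0847 (difference -0.84, adjusted p = 2.33e-16), a mean 2.00 times lower, and also passed in 7 of 7 genotypes, from -1.06 in *G. soja* to -0.70 in Clark. Over all transcripts, 54.0% were called for the mean of genotypes at T3 and 15.9% per genotype.

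At T5 *GmCOL13a* was higher in LD-SD than in LD by 1.01 ± 0.107 (adjusted p = 1.80e-14), a mean 2.46 times higher. It was higher in mean in 7 of 7 genotypes and passed in 5, not in L65-3366 and L92-1195. In L92-1195 the unlettered library held 0.600 RPKM beside 9.49 and 7.83 RPKM, and the difference was 0.38 (adjusted p = 0.549) but 1.24 without the libraries of unclear label (adjusted p = 0.00113). *GmCOL13b* was higher by 0.31 ± 0.0847 (adjusted p = 0.00195), with a positive difference in 6 of 7 genotypes and none past the threshold alone. This call was lost without replicate A (0.14, adjusted p = 0.342). The background was 32.2% of transcripts for the mean of genotypes at T5 and 3.78% per genotype.

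At T1 *GmCOL13b* was lower in LD-SD than in LD by 0.62 ± 0.0847 (difference -0.62, adjusted p = 1.74e-10), a mean 1.91 times lower. It was lower in mean in 7 of 7 genotypes and passed in *G. soja*, L65-3366 and Williams 82. *GmCOL13a* was lower by 0.28 ± 0.107 (difference -0.28, adjusted p = 0.0175), a call that was lost when any of the 3 replicate letters was left out (adjusted p = 0.0624 to 0.119). It passed in 0 of 7 genotypes by limma. In *G. soja* its difference was 0.39 (adjusted p = 0.308), against -0.19 to -0.54 in the others, and the 3 *G. soja* libraries in LD-SD held 1.25, 0.832 and 3.13 RPKM, the last of which stands apart. All transcripts gave 58.8% calls for the mean of genotypes at T1 and 23.0% per genotype.

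Against plants kept in SD, *GmCOL13a* was higher and *GmCOL13b* lower at T3 after the shift. These contrasts share the SD libraries with the choice of the pair, which favoured low SD values and homeologs that differ under SD, so their p-values are not independent of it either. *GmCOL13a* was higher in LD-SD than in SD by 0.83 ± 0.107 (adjusted p = 2.26e-11), a mean 2.27 times higher, with 17 of 21 LD-SD libraries above the highest SD library. It was higher in mean in 7 of 7 genotypes and passed in 4, among them *G. soja* (1.04, adjusted p = 0.00493), where the call was lost without the replicate B that stands apart (0.32, adjusted p = 0.345). *GmCOL13b* was lower in LD-SD than in SD by 0.41 ± 0.0847 (difference -0.41, adjusted p = 1.72e-05), a mean 1.42 times lower. It was lower in 6 of 7 genotypes and passed alone in Williams 82 (-0.76, adjusted p = 0.00919), where the LD-SD libraries held 3.16, 2.76 and 3.39 RPKM and the SD libraries 4.68, 8.05 and 5.53 RPKM. This call was lost without replicate B (-0.51, adjusted p = 0.247) or C (-0.86, adjusted p = 0.0711). The share of transcripts called at T3 was 53.0% for the mean of genotypes and 13.5% per genotype.

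The place of LD-SD beside LD and SD thus differed between the homeologs at T3. The SD and LD levels chose the pair, so these places are not independent of that choice and are a description. No share over all transcripts is given for them. The LD-SD mean of *GmCOL13a* lay between those of LD and SD in 7 of 7 genotypes. That of *GmCOL13b* lay below both in 6 of 7, with *G. soja* as the exception, where the replicate B that stands apart held 8.24 RPKM beside 2.14 and 3.90 RPKM.

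At T1, *GmCOL13b* was higher in LD-SD than in SD by 0.29 ± 0.0847 (adjusted p = 0.00552) and passed in 0 of 7 genotypes by limma. Without replicate C the call was lost (0.18, adjusted p = 0.235). *GmCOL13a* differed by 0.20 ± 0.107 (adjusted p = 0.163), and passed only with a pseudocount of 0.1 (0.53, adjusted p = 0.0108). The background at T1 was 28.0% for the mean of genotypes and 1.83% per genotype. At T5, *GmCOL13a* differed by -0.25 ± 0.107 (adjusted p = 0.0457), which did not pass without the samples of unclear label (-0.11, adjusted p = 0.409), without the libraries that stand apart (-0.11, adjusted p = 0.232) or with a median-of-ratios factor (-0.18, adjusted p = 0.153), so no direction is drawn from it. *GmCOL13b* differed by 0.12 ± 0.0847 at T5 (adjusted p = 0.240), and passed in *G. soja* (0.68, adjusted p = 0.0384), but not there without replicate A (0.30, adjusted p = 0.576) or C (0.86, adjusted p = 0.0931). Here 46.5% of transcripts were called for the mean of genotypes and 7.12% per genotype.

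**Figure D3:**
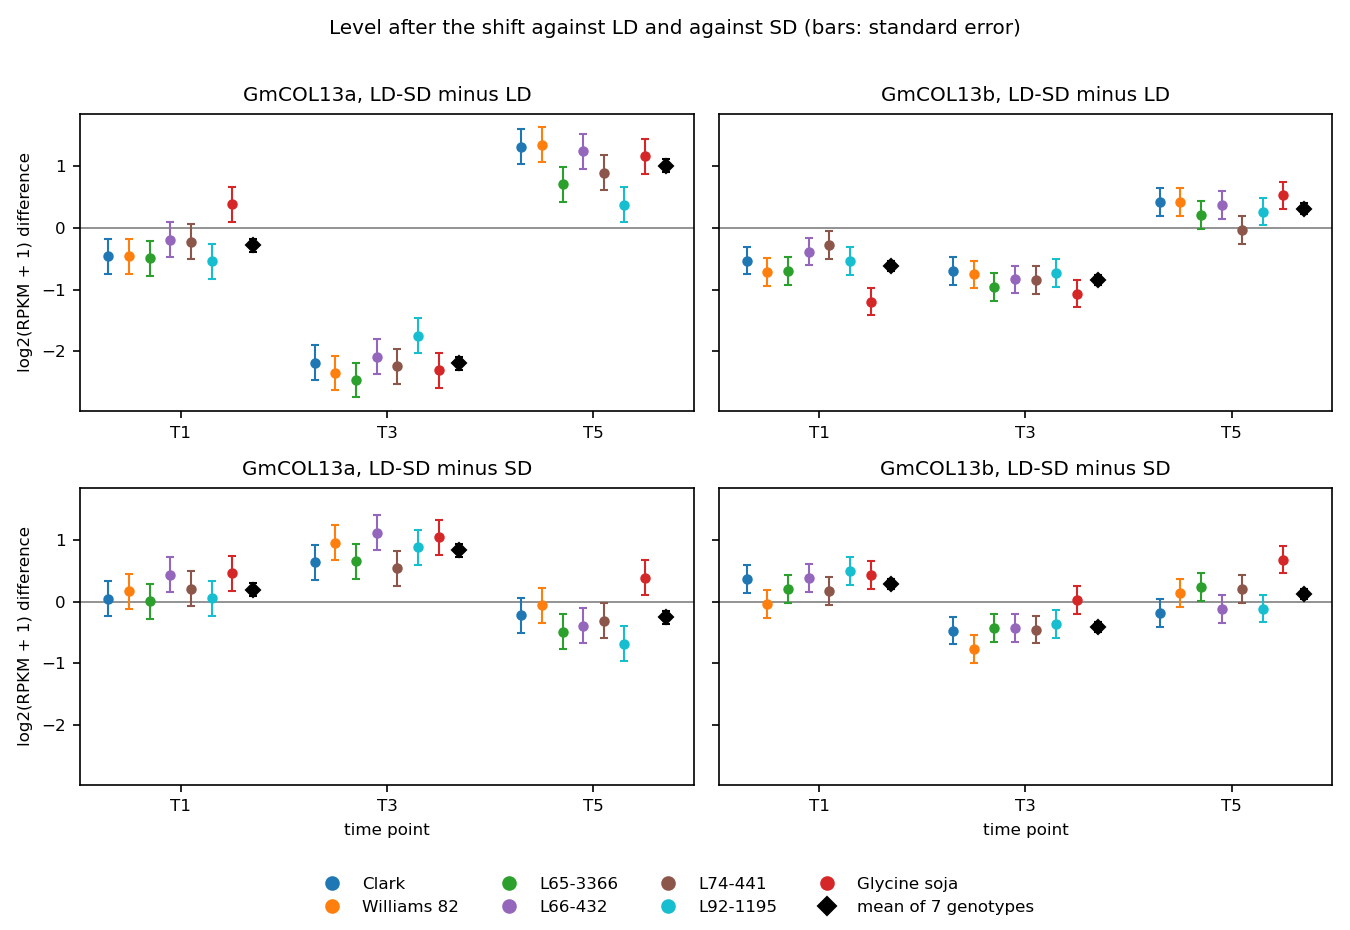
Differences of log2(RPKM + 1) (vertical axis) of LD-SD minus LD (top) and LD-SD minus SD (bottom) at T1, T3 and T5 for *GmCOL13a* (left) and *GmCOL13b* (right). Circles are genotypes with 3 libraries a photoperiod, diamonds are means of 7 genotypes, and bars are standard errors. At T3 LD-SD lay below LD for both genes (-2.19 and -0.84), while against SD *GmCOL13a* was higher (0.83) and *GmCOL13b* lower (-0.41).

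The pooled spread between replicates of *GmCOL13a* was largest at T3 and T5 after the shift, with a single genotype standing out at each. The pooled standard deviation of log2(RPKM + 1) within groups was 0.53 at T3, 0.61 at T5 and 0.30 at T1 in LD-SD, against 0.17 to 0.31 in the 6 combinations under SD and LD. For *GmCOL13b* it was 0.29 to 0.35 in LD-SD and 0.16 to 0.33 under SD and LD. In *GmCOL13a*, *G. soja* replicate B at T3 and the unlettered L92-1195 library at T5 held values far from their group. Both are among the 3 LD-SD libraries that stand apart. The standard deviation was 1.25 in the *G. soja* group at T3 and 1.4997 in the L92-1195 group at T5. The other genotypes had 0.16 to 0.39 at T3 and 0.16 to 0.38 at T5, below the pooled 0.53 and 0.61. The larger pooled spread was thus that of these groups, and a pooled value without these libraries was not computed.

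Differences among the 6 *Glycine max* genotypes were not detected. Of 18 contrasts (each line or cultivar minus Clark and L92-1195 minus L74-441, averaged over time points, in each photoperiod), 0 passed in limma for *GmCOL13a* and 0 for *GmCOL13b*, and 0 and 1 had an unadjusted p below 0.05. The estimates lay between -0.12 and 0.19 for *GmCOL13a* and between -0.12 and 0.28 for *GmCOL13b*, and the 95% intervals reached from -0.44 to 0.51 and from -0.38 to 0.53. A difference within these bounds cannot be told from none with these libraries. The highest of these estimates, 0.19 for *GmCOL13a* and 0.28 for *GmCOL13b*, were those of the E1 line L65-3366 minus Clark under LD. Neither passed, and the lowest adjusted p by limma in the 18 contrasts was 0.92 for each gene. Of all transcripts in these 18 contrasts, 0.367% were called.

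The wild *G. soja* stood out under LD. The F-test over genotypes within LD passed for *GmCOL13b* (adjusted p = 0.00215) but gave adjusted p = 1 without *G. soja*, and 0.132 and 0.464 without replicate A and C. It did not pass for *GmCOL13a* (adjusted p = 0.552), except without the libraries that stand apart (adjusted p = 0.0105). None of these is under LD, so the LD values were the same in both fits and no firm call can be made for *GmCOL13a*. This test called 15.7% of transcripts within LD. *GmCOL13b* was higher in *G. soja* than in the mean of the *G. max* genotypes by 0.60 ± 0.0988 under LD (adjusted p = 2.14e-07), and *GmCOL13a* by 0.36 ± 0.125 (adjusted p = 0.0170), beside 35.5% of all transcripts called in this contrast. The call of *GmCOL13a* did not hold with a pseudocount of 0.1 or without any of the replicate letters (adjusted p = 0.073 to 0.119).

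The values behind this differed between the homeologs in their time point. *GmCOL13b* at T1 under LD was 5.27, 5.07 and 5.55 RPKM in *G. soja*, all above the 18 *G. max* libraries (1.62 to 3.18 RPKM). *GmCOL13a* at the same time was 1.26, 1.14 and 0.575 RPKM, inside the *G. max* range of 0.518 to 1.85 RPKM. At T5 under LD, *GmCOL13a* was 4.97, 4.25 and 7.72 RPKM in *G. soja*, all above the *G. max* libraries (1.87 to 4.07 RPKM), and *GmCOL13b* was 3.21, 2.78 and 5.32 RPKM against 1.55 to 3.51 RPKM. The 7.72 and 5.32 RPKM are those of replicate C, whose whole profile was nearer to the SD libraries of T5. No alternative left out this library alone. The reads of *G. soja* were aligned to transcripts of Williams 82, and the part of sequence differences in these values was not tested.

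Under SD, no difference of *G. soja* in the pair was called in the main fit. The F-test over genotypes within SD gave adjusted p = 1 for *GmCOL13a* and 0.601 for *GmCOL13b* (14.2% of transcripts called). The contrast of *G. soja* with *G. max* was 0.20 ± 0.125 (adjusted p = 0.205) and -0.07 ± 0.0988 (adjusted p = 0.628), with 34.9% called over all transcripts. The value of *GmCOL13a* passed without the libraries that stand apart (0.21, adjusted p = 0.0466).

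In LD-SD the contrast of *G. soja* with *G. max* was 0.64 ± 0.125 for *GmCOL13a* (adjusted p = 9.98e-06) and 0.37 ± 0.0988 for *GmCOL13b* (adjusted p = 0.00103), beside 44.8% of transcripts called. Without the libraries that stand apart both calls were lost, at 0.23 (adjusted p = 0.0576) and 0.14 (adjusted p = 0.286). At T3 the 3 *G. soja* libraries held 2.94, 15.7 and 2.53 RPKM of *GmCOL13a*, and the 18 *G. max* libraries 2.97 to 6.61 RPKM, so replicate B lay above all of them and the others below all of them. At T5 all 3 held more than any *G. max* library, with 18.4, 12.9 and 10.4 RPKM against 0.600 to 9.96 RPKM. Replicate A of this group (18.4 RPKM) was nearer in its whole profile to the SD libraries of T5. The F-test over genotypes within LD-SD gave adjusted p = 0.00281 for *GmCOL13a*, and 0.503 without *G. soja* and 0.0611 without replicate B. For *GmCOL13b* it was 0.129, beside 25.2% of transcripts called. It passed when the replicate letters were added to the fit, so no firm call can be made for *GmCOL13b*.

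**Figure D4:**
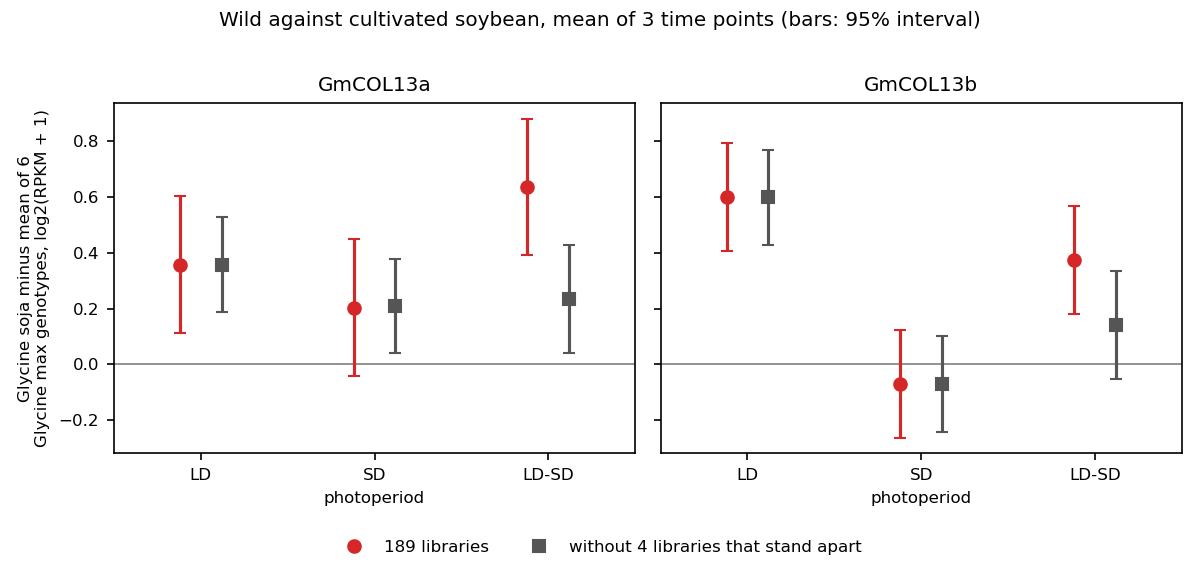
*G. soja* minus the mean of 6 *G. max* genotypes in log2(RPKM + 1), averaged over 3 time points (vertical axis), in LD, SD and LD-SD for *GmCOL13a* (left) and *GmCOL13b* (right). Circles use all libraries and squares leave out the 4 that stand apart, and bars are 95% intervals. None of the 4 is under LD, so the LD values of 0.36 and 0.60 could not change. Those of LD-SD move from 0.64 to 0.23 and from 0.37 to 0.14.

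Whether the photoperiod response differed among genotypes was tested as an interaction over the 3 time points. These tests use SD or LD libraries that chose the pair, so their p-values are not independent of that choice. For SD minus LD it gave adjusted p = 1 for *GmCOL13a* and 0.132 for *GmCOL13b*, beside 1.37% of all transcripts called. The second value passed with a median-of-ratios factor (adjusted p = 0.0432) and without the libraries that stand apart (adjusted p = 0.0123). It also passed when the replicate letters were added to the fit, so no firm call can be made for *GmCOL13b*. Its T1 mean in *G. soja* was 4.99 times lower under SD than under LD, against 1.63 times in L74-441, the lowest of the 7. For LD-SD minus LD the interaction gave adjusted p = 0.778 and 0.922, beside 1.31% called.

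Of the other 24 *GmCOL*s, 22 passed the filter on low values. The pair was chosen on its SD and LD libraries, which the contrasts below also use. Its places among the other genes may be favoured by that choice and are a description. At T3 in LD-SD against LD, 9 were called higher and 12 lower, with a median of -0.50 where all 61180 transcripts had -0.04, and 13215 and 19827 of all transcripts (54.0% together) were called higher and lower. Among the 8 other Clade III genes tested, 0 were called higher and 7 lower by limma, with a median of -1.29. Only *GmCOL7a* (-2.35) and *GmCOL9b* (-2.22) had a lower estimate than *GmCOL13a* among the 22. At T5 the 8 Clade III genes counted 4 higher and 2 lower (median 0.19), with 0.43 in *GmCOL8a* as the highest, and all 22 others were below the 1.01 of *GmCOL13a*. Of all transcripts, 10860 were called higher and 8829 lower at T5 (32.2% together). At T1, 14 of the 22 were called higher and 3 lower (median 0.44), while Clade III counted 4 higher and 1 lower (median 0.17), beside 19399 higher and 16605 lower of all transcripts (58.8% together). Against SD at T3, Clade III counted 5 higher and 0 lower by limma (median 0.25), beside 20640 higher and 11760 lower of all transcripts (53.0% together), and the lowest was *GmCOL12a* at -0.02, so the -0.41 of *GmCOL13b* was below all 8.

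The pattern most like that of *GmCOL13a* over the 63 group means of log2(RPKM + 1), among 45419 other transcripts whose mean reached 1 RPKM, was that of Glyma14g09120.1 (Pearson r = 0.980), followed by Glyma18g07520.3 (r = 0.980). The first had mean values of 14.4 RPKM under LD and 0.935 RPKM under SD at T3, and 1.40 and 5.67 RPKM at T5. For *GmCOL13b* it was that of Glyma12g01770.2 (r = 0.929) and Glyma12g01790.1 (r = 0.921). The first had 4.25 RPKM under LD and 1.35 RPKM under SD at T1, and 5.75 and 5.79 RPKM at T3 and T5 in LD-SD. The homeologs themselves correlated at r = 0.746, and 2263 transcripts were more like *GmCOL13a* than its homeolog was. Within photoperiods r was 0.861 under LD, 0.500 under SD and 0.911 in LD-SD over 21 group means each. These correlations share libraries, depth and time points and are a description.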

How the data were processed

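The authors aligned reads with Bowtie (version not given in the sources used here) to transcripts of Williams 82, counted reads per transcript with a script of their own and deposited 1 column of RPKM per library. Values started from this table. A transcript with infinite values (1) was left out. The members, gene lists and tests were chosen with earlier results of these data known. Groups and replicate letters came from the labels, which call them biological replicates. P-values from limma rest on a single estimate per transcript of the spread between replicates, shared by all 63 groups.

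The depth of each library was recovered from the steps between RPKM values of 18943 transcripts, as the depth at which their lengths came out whole within 0.01 bases. A single fit of limma 3.58.1 (R 4.3.3) on log2(RPKM + 1) had a coefficient for each of 63 groups and eBayes with trend, after removal of transcripts averaging under 0.1 RPKM. Intervals are the estimate ± 1.96 standard errors. Fold changes on this scale understate those of low values. Homeolog ratios were tested with scipy 1.17.1 (Python 3.11.15, numpy 2.4.6, pandas 2.3.3). The level of 3 reads covers counting error only. The steps were tested on simulated data.

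The named transcripts are the pair, counts over the other *GmCOL*s and the 2 most alike transcripts of other loci for each member. Alternatives scaled by a median-of-ratios factor or quantiles, used no filter or a filter at 1 RPKM, set the pseudocount to 0.1, summed the transcripts of a locus, dropped the trend, *G. soja*, samples of unclear label or the libraries of each replicate letter, added the letter as a replicate block and, chosen after seeing the data, dropped the libraries that stand apart. No coordinates or sequences are given, since no genome was used here.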

Additional observations from a re-analysis of the deposited data

How the results depend on the processing

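With 1 replicate letter left out, LD-SD minus LD ranged from -0.31 to -0.26 for *GmCOL13a* at T1 and from 0.14 to 0.39 for *GmCOL13b* at T5. LD-SD minus SD ranged from 0.18 to 0.39 for *GmCOL13b* at T1 and from -0.44 to -0.20 for *GmCOL13a* at T5. *G. soja* minus *G. max* within LD ranged from 0.35 to 0.38 for *GmCOL13a*. The adjusted p of the genotype F-test ranged from 0.0298 to 0.464 for *GmCOL13b* within LD and from 0.0345 to 0.0611 for *GmCOL13a* within LD-SD. These fits hold 2 libraries in nearly all groups. LD-SD minus SD of *GmCOL13a* at T5 lost its call with a pseudocount of 0.1 (-0.32), without a filter (-0.25), with a median-of-ratios factor (-0.18), with quantiles (-0.19), without samples of unclear label (-0.11) and without libraries that stand apart (-0.11). A pseudocount of 0.1 gave 0.53 for *GmCOL13a* in LD-SD minus SD at T1, which then passed, and 0.41 for *G. soja* within LD, which did not. Without libraries that stand apart, *G. soja* minus *G. max* was 0.21 within SD and 0.23 within LD-SD for *GmCOL13a* and 0.14 within LD-SD for *GmCOL13b*, and the adjusted p was 0.0105 for *GmCOL13a* over genotypes within LD and 0.0123 for the interaction of *GmCOL13b* with SD minus LD (0.0432 with a median-of-ratios factor). Without *G. soja* the genotype F-test gave adjusted p = 1 for *GmCOL13b* within LD and 0.503 for *GmCOL13a* within LD-SD. Deviations from the group means had a mean correlation of 0.187 over 561 pairs of the same letter, with 376 over 0.1 and a lowest of -0.36, and of -0.09 over 1122 pairs of different letters, with 211 over 0.1. Libraries of a letter thus shared some deviation, though not in every pair, and the labels name no shared batch. The main fit and the permutation test left the letters out, so their p-values for means over genotypes may be too small. The fit with a replicate block drops the unlettered library and takes letter A as the reference at each photoperiod and time point. Its differences between photoperiods are thus those at letter A, not means over the letters. They were -0.23 for *GmCOL13a* in LD-SD minus LD at T1 and 0.28 for *GmCOL13b* in LD-SD minus SD at T1. For *GmCOL13a* in LD-SD minus SD at T5 the difference was 0.12, with the opposite sign to the main fit. None passed the threshold. The block also gave adjusted p = 0.0382 over genotypes within LD-SD and 0.0142 for the interaction with SD minus LD, both for *GmCOL13b*. Over all transcripts the block changed the calls of LD-SD minus LD at T5 from 19689 to 13050, of LD-SD minus SD from 17153 to 6920 at T1 and from 28452 to 10496 at T5, and of the interactions from 838 to 2074 (SD minus LD) and from 803 to 3673 (LD-SD minus LD). The block counts for LD-SD minus LD and LD-SD minus SD also compare letter A alone. The cause of the change in the interactions was not tested. Depth limits *GmCOL13a* at T1, where 3 reads were 0.186 RPKM in the median library.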
